A study of Mus musculus with 25 samples.

Results

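The genes described here are 10 transcription factors of the pan-endocrine lineage of the mouse pancreas: Neurog3, Neurod1, Insm1, Insm2, Myt1, St18, Rfx3, Rfx5, Rfx6 and Pou3f4. They were chosen by name among the 24439 genes of the RNA-seq tables. Their chromatin is represented by the consensus ATAC-seq peaks whose nearest annotated gene is one of them, which are 63 of 65053 peaks. The study profiled differences between the mouse islet lines alpha TC1 clone 6 (αTC1, glucagon-producing) and beta-TC-6 (βTC6, insulin-producing). Open chromatin was measured by ATAC-seq, in which a transposase tags accessible DNA, in 5 libraries of pure αTC1 cells, 5 of pure βTC6 cells and 9 mixtures made in 10% steps with 1 library each. Transcripts were measured by RNA-seq in 3 libraries of each line, with ERCC spike-in RNA added. No cells were treated. The lines were grown in different base media. That of αTC1 was given 10% serum, albumin, HEPES, non-essential amino acids and glucose, and that of βTC6 15% serum and pyruvate, with its glucose not stated. The line and its medium therefore cannot be told apart. Each line is a single established line and not a primary islet cell, and nothing states that replicates were separate cultures, so the p-values measure only the spread between these libraries.

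In the developing pancreas, Neurog3 is a basic helix-loop-helix (bHLH) factor that is switched on briefly and commits progenitors to an endocrine fate. It turns on a second layer of factors, among them Neurod1, Insm1, Rfx6 and Myt1, some of which stay on in all hormone-producing cells of the adult islet. Pou3f4 (also called Brn4) is a POU homeodomain factor found in alpha cells, where it binds the glucagon gene promoter.

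The cultures matched their labels. Glucagon (Gcg) ranged from 12113 to 14406 FPKM (fragments per kilobase, scaled to the library's total) over the αTC1 libraries and insulin 2 (Ins2) from 23541 to 35748 over those of βTC6. βTC6 libraries also held Gcg at 172 to 267 FPKM and somatostatin (Sst), the delta-cell hormone, at 207 to 325 FPKM, which is listed at 0 in all αTC1 libraries. The other delta marker, Hhex, was at 0.13 FPKM or less in every library. Pancreatic polypeptide (Ppy) ranged from 3.70 to 50.8 FPKM in βTC6 and was at 0.10 or less in αTC1, and of 4 acinar markers only Cela1 passed 1 FPKM, at 3.58 to 3.70 in αTC1. In bulk samples, fewer cells of a type and less RNA per cell cannot be told apart. Endothelial and stromal markers stayed under 1 FPKM in all libraries, while of 3 duct markers Krt7 was higher in βTC6 (26.7 to 49.9 against 1.33 to 1.46 FPKM) and Sox9 in αTC1 (4.05 to 4.42 FPKM, listed at 0 in βTC6). Of 2 immune markers, Cd68 was at 0.92 to 1.2 FPKM in αTC1 and 2.02 to 2.18 in βTC6, and Ptprc at 0.02 or less in every library. Gene-assigned RNA-seq counts totalled 21954031 to 26033482 per library, and reads in peaks totalled 4397851 to 10374903 per pure ATAC-seq library. In the study's sequencing summary the mitochondrial read shares of ATAC-seq replicates 1 to 3 of each line stand apart from those of replicates 4 and 5. No source names these as batches, but results for the named peaks were also computed within each set, called a processing group here. Replicates 1 to 3 of each line were more alike than they were to replicates 4 and 5, but βTC6 replicates 4 and 5 differed from each other more than any other βTC6 pair (chi-square per degree of freedom of 8.36), so the second group is not uniform.

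Across the transcripts, Pou3f4 was far higher in αTC1 and Insm1 was several-fold higher in βTC6, while Neurod1, Myt1 and Rfx6 stood at similar, high levels in both lines. Rfx3 and St18 were modestly higher in βTC6 and Rfx5 in αTC1. Neurog3 and Insm2 were at or close to 0 and failed the filter on low values (FPKM of 1 or more in each αTC1 or each βTC6 library), so 8 of the 10 factors were tested. Differences were tested with edgeR's quasi-likelihood test, and a gene was called where its Benjamini-Hochberg adjusted p was under 5% and its absolute log2 fold change (βTC6 over αTC1) above 2. By that rule 2 of the 8 factors were called, 1 in each direction, against 14.3% of the 12195 genes tested (10.2% higher in βTC6 and 4.08% higher in αTC1). By the adjusted p alone, 5 of the 8 passed, against 74.6% of all genes. Their median absolute log2 fold change was 0.60, beside 0.61 for all tested genes.

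**Figure D1:**
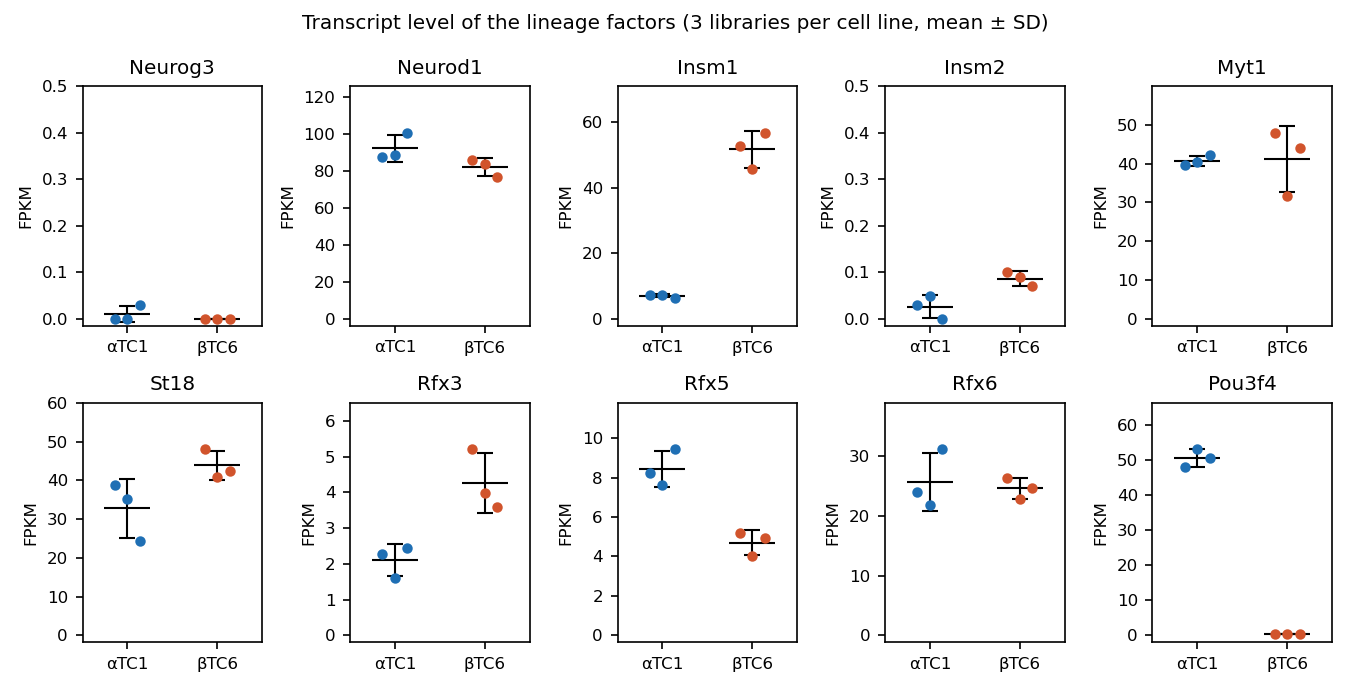
FPKM of each factor in the 3 αTC1 (blue) and 3 βTC6 (orange) RNA-seq libraries, on linear axes with their own scale per gene. Points are libraries and bars the mean ± SD. Pou3f4 is near 50 FPKM in αTC1 and under 1 in βTC6, Insm1 shows the opposite order, and the Neurog3 and Insm2 points all lie at 0.1 FPKM or below.

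Neurog3, the factor at the head of this cascade, was detected as 1 count in a single αTC1 library and as 0 in the other 5 libraries. A floor of 3 counts corresponds to at most 1.37e-05% of a library's counts, so expression below that share was not detectable. None of the 65053 consensus peaks was annotated to it. The gene lies on mm9 at chr10:61595838-61597511, and the nearest consensus peaks ended 21.7 kb before it (chr10:61573343-61574100, annotated to 2010107G23Rik) and began 48.2 kb after it (chr10:61645740-61646255, annotated to Mir7662). The neighbouring peaks had mean normalized read counts of 17.6 ± 1.17 (SD, n = 5) and 10.1 ± 1.53 in αTC1 and 11 ± 3.14 and 5.87 ± 1.97 in βTC6.

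Neurod1, a bHLH activator that follows Neurog3 and binds the insulin promoter in mature beta cells, had the highest transcript level of the 10 factors in either line. It measured 87.4, 88.4 and 100.6 FPKM in αTC1 and 85.8, 83.8 and 76.4 FPKM in βTC6, above 92.6% and 91.4% of the tested genes. All αTC1 libraries lay above all βTC6 libraries, but the fitted log2 fold change of −0.11 (SE 0.09) did not pass (edgeR adjusted p = 0.27). Of its 7 peaks none was called. At an adjusted p under 5%, which 78.0% of all peaks met, 5 were more open in αTC1 and 2 in βTC6. The peak at its start site (chr2:79296559-79297213) had normalized read counts (reads falling in a peak, brought by the authors to one library size) of 52.2, 45.7, 54.9, 61.4 and 42.5 in αTC1. In βTC6 they were 36.4, 43.7, 42.0, 43.9 and 26.4, so the groups overlapped and the log2 fold change was −0.42 (SE 0.13, limma adjusted p = 0.0066). This difference depends on the scaling: after quantile normalization it was −0.03 (adjusted p = 0.85). In replicates 4 and 5 alone it was −0.57 and did not pass (0.061). A pair of peaks in introns of the neighbouring gene Cerkl, downstream of Neurod1, differed in opposite directions. The one at 5.71 kb averaged 10.3 ± 0.68 in αTC1 against 2.58 ± 1.08 in βTC6, a log2 fold change of −1.71, and the one at 8.51 kb averaged 6.69 ± 1.41 against 22.4 ± 5.66, a log2 fold change of 1.59. The first was called after quantile normalization (−2.06) and with edgeR on recovered reads (−2.01). These 2 peaks lie outside the rule for named peaks and were chosen after their values were seen.

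Insm1, a zinc-finger repressor required for endocrine differentiation, was the one factor called higher in βTC6. Its transcript measured 7.40, 7.41 and 6.52 FPKM in αTC1 and 52.7, 45.7 and 56.8 FPKM in βTC6, with no overlap. The log2 fold change was 2.92 (SE 0.10, edgeR adjusted p = 2.89e-08), a 7.56-fold difference.

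Insm1 has 6 peaks, and they did not move together. Peaks at 120 bp after the start and at 432 bp and 4.56 kb before it passed as more open in βTC6, and their log2 fold changes were 2.21, 2.12 and 2.39. The peak 4.56 kb upstream (chr2:146043007-146043345) had counts of 0.98, 1.40, 0.75, 1.5 and 1.01 in αTC1 and 10.4, 10.3, 10.3, 10.4 and 9.11 in βTC6 (SE 0.20, limma adjusted p = 1.35e-09). A peak 17.2 kb upstream, in an intron of 4930529M08Rik (chr2:146030210-146030802), went the other way. It had counts of 23.0, 23.0, 16.5, 21.7 and 20.2 in αTC1 and 2.70, 3.49, 5.68, 3.99 and 3.0 in βTC6, a log2 fold change of −2.22 (SE 0.18, adjusted p = 8.21e-10). So the line with the lower Insm1 transcript had the more open peak at this site. The sixth peak, 138.5 kb upstream in the same gene, was again more open in βTC6 (1.57 ± 0.57 against 6.03 ± 2.2, log2 fold change 1.42, adjusted p = 1.86e-05) without being called. The largest Insm1 peak, over its single exon and 1.21 kb after the start, averaged 29.8 ± 5.55 in αTC1 and 19.8 ± 4.70 in βTC6. Its log2 fold change of −0.58 passed the limma adjusted p (0.0026) and did not meet the fold threshold. It passed the adjusted p in replicates 1 to 3 alone (−0.53, adjusted p = 8.92e-04) but not in replicates 4 and 5 alone (−0.65, adjusted p = 0.053). Calls near the start rest on few reads in αTC1, where the peak at 432 bp held 3 to 12 reads per library and the one at 120 bp held 3 to 28. After quantile normalization the 3 βTC6 calls at Insm1 fell below the fold threshold, with the same direction. Without αTC1 replicate 5 the peaks at 120 bp and 432 bp had log2 fold changes of 1.92 and 1.98 and were not called. The central 200 bases of the 2 called upstream peaks at 17.2 kb and 4.56 kb, which opened in opposite lines, are given below from the plus strand of mm9, 5′ to 3′, with capitals marking a CAGCTG E-box, a core bound by bHLH factors. The window at 17.2 kb holds none of the letters searched, but the whole peak holds 2 CAGATG E-boxes.
Insm1 peak 17.2 kb upstream, chr2:146030406-146030605: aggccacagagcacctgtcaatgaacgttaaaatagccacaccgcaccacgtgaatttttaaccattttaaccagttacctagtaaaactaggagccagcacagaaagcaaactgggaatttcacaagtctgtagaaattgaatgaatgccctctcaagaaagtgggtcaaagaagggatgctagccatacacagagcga
Insm1 peak 4.56 kb upstream, chr2:146043076-146043275: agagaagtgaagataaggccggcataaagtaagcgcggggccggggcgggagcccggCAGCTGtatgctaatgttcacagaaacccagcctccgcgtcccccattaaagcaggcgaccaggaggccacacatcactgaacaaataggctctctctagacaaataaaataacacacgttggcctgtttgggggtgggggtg

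Insm2, an intronless relative of Insm1, was close to silent as a transcript and yet had a start-site peak called more open in βTC6. Its counts were 2, 4 and 0 in αTC1 and 8, 7 and 5 in βTC6, all at 0.10 FPKM or less. With no filter on low values the log2 fold change was 1.58 (SE 0.80) and did not pass (edgeR adjusted p = 0.11). The peak over its start site (chr12:56699627-56701073) had normalized read counts of 4.20, 3.93, 3.01, 2.87 and 3.61 in αTC1 and 36.9, 33.0, 40.0, 29.5 and 27.6 in βTC6. The lines did not overlap, and the log2 fold change was 2.92 (SE 0.15, limma adjusted p = 1.43e-12). A second peak 29.7 kb downstream, in an intron of the neighbouring gene Ralgapa1, averaged 0.81 ± 0.72 in αTC1 and 8.38 ± 1.54 in βTC6 (a log2 fold change of 2.44), with αTC1 replicate 5 at the lowest value of that library. The third peak, also in a Ralgapa1 intron, was more open in βTC6 without being called (log2 fold change 1.11). Transcript and start-site chromatin of Insm2 therefore stood apart: an open site in βTC6 was measured beside 5 to 8 counts of RNA. The central window of the start-site peak is given below, plus strand of mm9, because it carries this contrast. It holds none of the letters searched, and 78.0% of its bases are G or C. The whole peak holds 3 CAGATG E-boxes and 1 match of the INSM1 letters CAGGGGG.
Insm2 start-site peak, chr12:56700250-56700449: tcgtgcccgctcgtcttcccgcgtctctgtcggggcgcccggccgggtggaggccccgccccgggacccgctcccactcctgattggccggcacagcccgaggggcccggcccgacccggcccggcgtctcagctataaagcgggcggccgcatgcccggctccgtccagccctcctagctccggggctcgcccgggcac

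Myt1 and St18 (also called Myt3) are related zinc-finger factors of neurons and islet cells. Myt1 measured 39.6, 40.3 and 42.2 FPKM in αTC1 and 48.0, 31.6 and 44.1 FPKM in βTC6, where the replicates spanned the whole αTC1 range. Its log2 fold change of 0.20 (SE 0.13) did not pass (edgeR adjusted p = 0.18) and was close to 0 with limma on log2(FPKM + 1). Without βTC6 replicate 2, the lowest library, it was 0.34 with an adjusted p of 0.0044. St18 measured 38.9, 35.3 and 24.3 FPKM in αTC1 and 48.1, 41.0 and 42.5 FPKM in βTC6. Its log2 fold change was 0.40 (SE 0.14, adjusted p = 0.023), a difference that kept a similar size but did not pass without βTC6 replicate 1 (0.38, adjusted p = 0.075), without βTC6 replicate 2 (0.39, adjusted p = 0.059) or when libraries were scaled to the ERCC spike-ins (0.40, adjusted p = 0.53). Without αTC1 replicate 3, the lowest library, the log2 fold change was 0.25 (adjusted p = 0.014).

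Chromatin at St18 leaned the other way. All its 15 peaks lie inside the gene (chr1:6477312-6851021), and 9 were more open in αTC1, 3 in βTC6 and 3 in neither at an adjusted p under 5%. None reached the fold threshold, with log2 fold changes from −1.70 to 1.79. The peak at −1.70 was called after quantile normalization (−2.09) and with edgeR on recovered reads (−2.2), and that at 1.79 with edgeR (2.07). The largest peak of all 10 factors, at an internal start site (chr1:6719293-6720263), had counts of 120.0, 111.5, 112.7, 119.7 and 106.3 in αTC1 and 81.5, 72.8, 65.1, 80.6 and 77.2 in βTC6. The groups did not overlap, and the log2 fold change was −0.59 (SE 0.08, limma adjusted p = 2.01e-06), but it shrank to −0.10 after quantile normalization (adjusted p = 0.24). Of the 6 Myt1 peaks none was called. Its 2 start-site peaks averaged 36.9 ± 2.97 in αTC1 and 42.5 ± 5.75 in βTC6 for chr2:181501388-181502265, with no difference past the threshold (adjusted p = 0.096), and 17.8 ± 2.16 and 11.9 ± 1.04 for chr2:181498473-181498887 (log2 fold change −0.53, adjusted p = 6.91e-04). The first of these passed after quantile normalization (log2 fold change 0.56, adjusted p = 2.2e-04) and without βTC6 replicate 5 (0.28, adjusted p = 0.0095). The second was −0.48 in replicates 4 and 5 alone and did not pass (adjusted p = 0.14).

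The 3 RFX factors bind the X-box, a DNA element of ciliary and immune genes. Rfx6 directs islet formation below Neurog3, Rfx3 drives genes of the primary cilium, and Rfx5 is part of the complex that activates MHC class II genes. Rfx6 measured 24.0, 21.8 and 31.2 FPKM in αTC1 and 26.3, 22.9 and 24.7 FPKM in βTC6. The lines overlapped and the log2 fold change was 0.08 (SE 0.12, edgeR adjusted p = 0.55), a direction that turned with limma on log2(FPKM + 1) (−0.04, adjusted p = 0.77). Without αTC1 replicate 3, the highest library, it was 0.23 with an adjusted p of 0.024. Rfx3 measured 2.29, 1.61 and 2.44 FPKM in αTC1 and 5.21, 3.97 and 3.59 FPKM in βTC6, higher in every βTC6 library. Its log2 fold change was 1.2 (SE 0.15, adjusted p = 8.05e-05), below the fold threshold. Rfx5 measured 8.21, 7.64 and 9.44 FPKM in αTC1 and 5.17, 4.01 and 4.94 FPKM in βTC6, lower in every βTC6 library, with a log2 fold change of −0.80 (SE 0.11, adjusted p = 1.44e-04). With libraries scaled to the spike-ins, the Rfx5 difference kept its size (−0.83) and did not pass (adjusted p = 0.14).

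At Rfx6, transcripts that did not differ past the threshold were measured beside chromatin that differed inside the gene. The peak at its first start site (chr10:51396955-51398396) had counts of 41.0, 40.2, 44.8, 40.7 and 38.4 in αTC1 and 39.6, 31.0, 36.5, 38.4 and 36.4 in βTC6, and did not pass (log2 fold change −0.17, SE 0.09, limma adjusted p = 0.094). A peak at an internal start site (chr10:51405011-51405642) had counts of 1.54, 2.67, 0.75, 3.28 and 0.14 in αTC1 and 14.6, 19.9, 15.8, 16.8 and 15.1 in βTC6. Its log2 fold change was 2.85 (SE 0.29, adjusted p = 2.14e-08), on at most 24 reads per αTC1 library. An intronic peak 10.3 kb from the nearest start (chr10:51414994-51416183) had counts of 7.56, 8.85, 6.16, 6.96 and 5.92 in αTC1 and 50.6, 48.4, 41.2, 52.2 and 34.7 in βTC6, a log2 fold change of 2.52 (SE 0.14, adjusted p = 3.02e-12). Both inner peaks separated the lines completely while the first start site did not. A further peak 1.22 kb before the first start averaged 12.5 ± 2.08 in αTC1 and 9.30 ± 2.2 in βTC6 (a log2 fold change of −0.40, adjusted p = 0.035), and it passed neither in replicates 1 to 3 alone (−0.38, adjusted p = 0.076) nor in replicates 4 and 5 alone (−0.43, adjusted p = 0.26). It also missed the threshold when any of αTC1 replicates 1 and 4 or βTC6 replicates 2, 3 and 4 was left out, with log2 fold changes from −0.38 to −0.32 and adjusted p from 0.063 to 0.097. The windows of the 2 called inner peaks are given below, plus strand of mm9. Capitals mark an X-box core, read as GTTGCC on the minus strand. The intronic window holds none of the letters searched, while the whole intronic peak holds 1 match of the INSM1 letters CAGGGGG.
Rfx6 internal-start peak, chr10:51405226-51405425: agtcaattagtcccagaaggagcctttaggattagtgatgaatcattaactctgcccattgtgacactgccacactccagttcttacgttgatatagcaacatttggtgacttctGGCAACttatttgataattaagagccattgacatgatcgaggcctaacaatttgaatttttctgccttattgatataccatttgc
Rfx6 intronic peak, chr10:51415488-51415687: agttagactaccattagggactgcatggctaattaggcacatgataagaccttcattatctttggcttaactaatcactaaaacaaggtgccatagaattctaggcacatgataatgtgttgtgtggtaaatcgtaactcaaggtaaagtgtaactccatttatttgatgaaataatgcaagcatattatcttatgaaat

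Rfx3 has 13 peaks spread from 203 kb after its nearest start to 320.1 kb before it, and they moved in both directions. The peak at its start site (chr19:28085551-28086856) was open in both lines, averaging 68.7 ± 3.19 in αTC1 and 67.3 ± 6.81 in βTC6 (a log2 fold change of −0.03, SE 0.09, limma adjusted p = 0.75). That result depends on the scaling, since after quantile normalization the log2 fold change was 0.43 (adjusted p = 3.81e-05). A second start-site peak, 574 bp into the gene, averaged 6.20 ± 1.94 and 5.00 ± 1.37 and did not pass (log2 fold change −0.25, adjusted p = 0.34), though it did after quantile normalization (−0.62, adjusted p = 0.025). Far upstream and between genes, a peak 167.1 kb from the start (chr19:28252367-28253129) had counts of 18.8, 18.1, 17.7, 19.8 and 22.1 in αTC1 and 1.85, 2.05, 2.84, 1.0 and 1.22 in βTC6. Its log2 fold change was −2.90 (SE 0.20, adjusted p = 1.04e-10), against the direction of the transcript. A peak 320.1 kb upstream, in an intron of Glis3 (chr19:28405305-28406137), had counts of 3.92, 3.09, 6.46, 2.32 and 4.77 in αTC1 and 26.4, 20.7, 26.9, 20.3 and 18.5 in βTC6 (a log2 fold change of 2.24, SE 0.20, adjusted p = 3.21e-09). These peaks are annotated to Rfx3 because its start is the nearest one, and which gene they act on was not measured. The remaining called Rfx3 peak, 6.01 kb from a start in an Rfx3 intron, stood at the threshold with a log2 fold change of 2.00, and its call was lost in replicates 4 and 5 alone (1.82), after quantile normalization (1.84) and when any of αTC1 replicates 2, 3 and 4 or βTC6 replicates 1 and 5 was left out. Rfx5 has 2 peaks, both more open in αTC1 without being called. The one at its start site (chr3:94757608-94758414) averaged 48.6 ± 4.95 in αTC1 and 29.1 ± 3.09 in βTC6, a log2 fold change of −0.72 (SE 0.10, adjusted p = 1.79e-06) in the same direction as its transcript. After quantile normalization the log2 fold change of this peak was −0.39. The window of the upstream Rfx3 peak is given below, plus strand of mm9, because it is the most αTC1-biased Rfx3 peak. Its capitals mark 2 CAGATG E-boxes, read as CATCTG, and 1 X-box core GTTGCC.
Rfx3 upstream peak, chr19:28252648-28252847: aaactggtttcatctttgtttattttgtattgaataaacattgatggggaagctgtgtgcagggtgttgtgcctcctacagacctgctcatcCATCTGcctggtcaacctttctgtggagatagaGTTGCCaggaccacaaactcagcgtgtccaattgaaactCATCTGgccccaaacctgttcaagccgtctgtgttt

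Pou3f4 showed the largest transcript difference of the 8 tested factors. Its transcript measured 48.1, 53.1 and 50.4 FPKM in αTC1 and 0.43, 0.43 and 0.38 FPKM in βTC6, where the libraries held 13, 13 and 11 counts. The log2 fold change was −6.85 (SE 0.13, edgeR adjusted p = 1.82e-09), so that αTC1 stood 115-fold higher. Pou3f4 lay above 84.7% of the tested genes in αTC1 and above 1.91% in βTC6. It passed the filter on low values only through αTC1, and genes low in both lines were not tested. The direction and the low rank in βTC6 therefore follow from that filter. An intergenic peak 43.1 kb upstream (chrX:107966350-107967059) had counts of 31.7, 25.1, 30.5, 22.7 and 21.1 in αTC1 and 1.99, 3.69, 2.03, 1.0 and 1.78 in βTC6. The lines did not overlap, and the log2 fold change was −3.17 (SE 0.21, limma adjusted p = 4.80e-11).

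The Pou3f4 gene itself stayed accessible in βTC6. The peak over its single exon (chrX:108009449-108010925) had counts of 61.5, 57.7, 57.6, 51.3 and 38.1 in αTC1 and 27.5, 23.6, 26.6, 27.4 and 35.6 in βTC6. It was lower in every βTC6 library, by a log2 fold change of −0.89 (SE 0.13, adjusted p = 2.29e-06), which is far less than that of its transcript. Within processing groups this difference was −1.16 in replicates 1 to 3 (adjusted p = 1.70e-08) and −0.49 in replicates 4 and 5 (adjusted p = 0.064). Over all pure libraries it was −0.56 after quantile normalization (limma adjusted p = 5.24e-04). A peak 135.7 kb upstream did not differ past the threshold (5.15 ± 1.38 and 5.03 ± 1.08), and the fourth, 50.1 kb downstream, stood at the lowest value of the library in all 19 libraries, as did 471 consensus peaks in all. The window of the upstream peak is given below, plus strand of mm9, as the site that followed the transcript. It is rich in A and T, with 31.0% G or C, and holds none of the letters searched.
Pou3f4 upstream peak, chrX:107966604-107966803: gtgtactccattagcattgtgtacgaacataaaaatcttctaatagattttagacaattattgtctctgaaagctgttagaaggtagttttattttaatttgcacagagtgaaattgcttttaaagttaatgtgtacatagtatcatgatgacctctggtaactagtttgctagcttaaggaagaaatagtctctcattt

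Over all 63 peaks, 12 were called: 9 more open in βTC6 (14.3%, against 12.9% of all peaks) and 3 in αTC1 (4.76%, against 5.38%). By the adjusted p alone 50 passed, 24 in βTC6 and 26 in αTC1, against 78.0% of all peaks. These shares are near the background and are no result about the factors as a group. The median log2 fold change of the 63 peaks was −0.03, beside 0.00 for all peaks. The calls fell at 5 factors (Insm1, Insm2, Rfx3, Rfx6 and Pou3f4), and 4 of the 12 were among the 15 start-site peaks, which lie under 2 kb from a start. Of all consensus peaks, 6.93% of start-site peaks and 21.6% of the more distant ones were called. The split between the lines depends on the scaling: after quantile normalization 5 factor peaks were called in each direction, and βTC6 took 52.5% of the calls over all peaks in place of 70.6%. The sign turned at 6 of the 63 peaks, among them 2 start-site peaks, the one of Rfx3 with a log2 fold change of −0.03 and the one at the first start of Rfx6. With a pseudocount of 5 in place of 1, 3 calls were left (the Insm2 start-site peak, the Rfx6 intronic peak and the Pou3f4 upstream peak), and calls over all peaks fell from 8409 to 1668 in βTC6 and from 3502 to 819 in αTC1. Within the processing groups, replicates 1 to 3 gave 8 and 3 calls (8157 and 3135 over all peaks) and replicates 4 and 5 gave 8 and 3 (9280 and 4367).

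**Figure D2:**
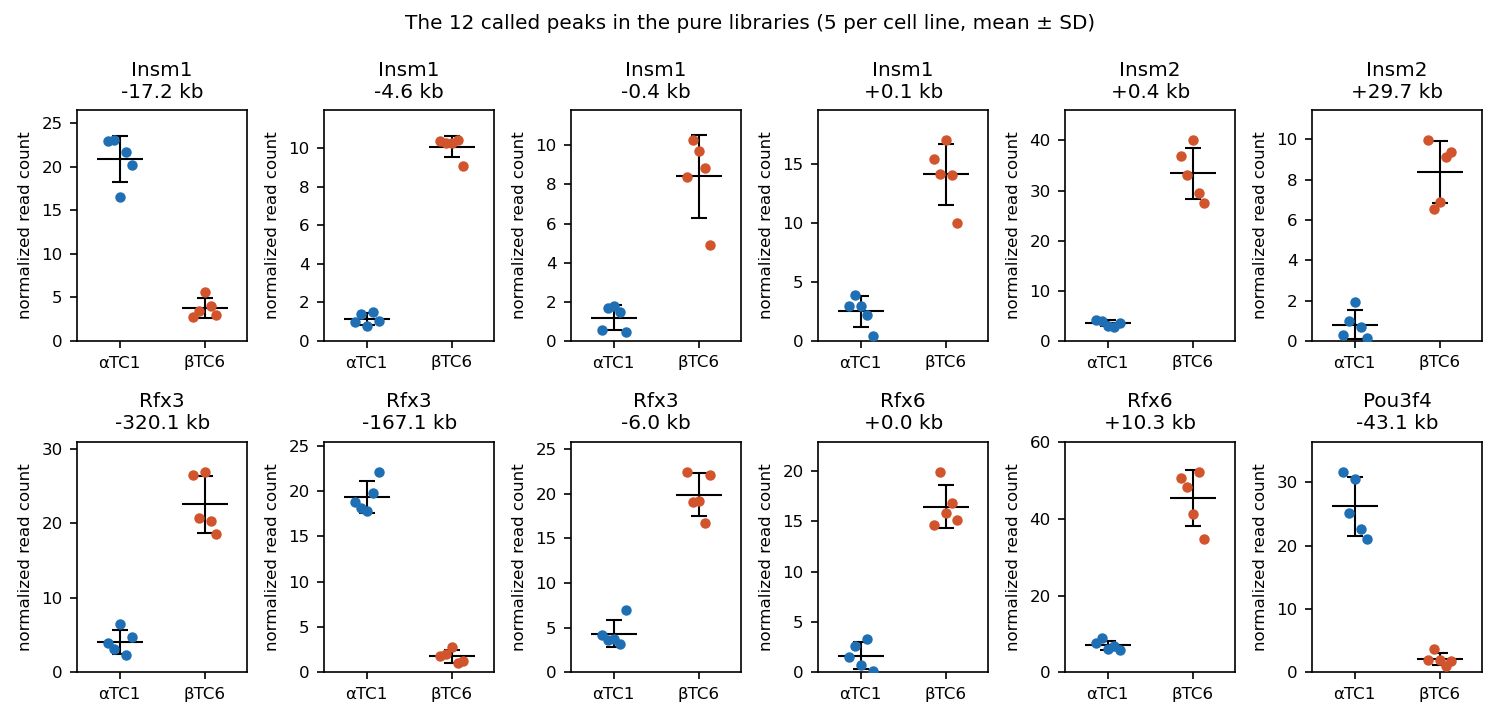
Normalized read count of the 12 called factor peaks in the 5 αTC1 (blue) and 5 βTC6 (orange) pure libraries, with the signed distance to the annotated start above each panel, linear axes from 0 and bars for the mean ± SD. In every panel the lines are separate; 9 panels are higher in βTC6 and 3, at Insm1, Rfx3 and Pou3f4, in αTC1.

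Set beside each other, transcripts and peaks agreed in direction at some factors and parted at others. At Pou3f4 and Rfx5 the transcript and all peaks that passed were lower in βTC6. At Rfx3 and Rfx6 the peaks spread to both sides of the transcript, and at St18 the median peak (log2 fold change −0.59) lay on the other side of 0 from the transcript (0.40). The 35 peaks inside their own gene, the 18 between genes and the 10 inside another gene were all assigned by the nearest start.

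To follow each locus as a whole, the normalized read counts of all peaks of a factor were summed in each library and compared by a two-sided exact permutation test over regroupings of 5 against 5, adjusted over the 9 factors with a peak. The smallest p this design allows is 0.0079. In αTC1 the St18 sum was highest, at 341.5 ± 3.65 (SD, n = 5), and fell to 242.6 ± 20.5 in βTC6. Pou3f4 fell from 84.7 ± 14.3 to 35.4 ± 3.55 and Rfx5 from 62.0 ± 3.88 to 38.8 ± 3.68. Rfx6 was higher in βTC6 (131.7 ± 9.58 against 78.4 ± 3.91), as were Rfx3 (230.3 ± 12.9 against 166.8 ± 12.9) and Insm2 (45.6 ± 4.44 against 5.64 ± 1.53). These 6 sums did not overlap between the lines and reached the smallest p, with exact adjusted p = 0.012. Sums for other genes were not computed, so this count has no background share and is no result about the factors as a group. Of all single peaks, 78.0% passed the limma adjusted p alone. The Insm1 sum, in which opposite peaks cancel, was 57.1 ± 7.79 in αTC1 and 62.3 ± 10.6 in βTC6 (exact adjusted p = 0.44). Myt1 (125.0 ± 5.56 against 106.4 ± 14.8) passed with an exact adjusted p of 0.020 although its groups overlapped, and Neurod1 (134.9 ± 17.8 against 110.1 ± 18.4) did not (0.071). Without αTC1 replicate 1, 3 or 4 the Myt1 difference stayed at −0.24 to −0.25 on the log2 scale, as over all libraries (−0.24), and no longer passed (exact adjusted p = 0.051), without βTC6 replicate 5 it was −0.155 (exact adjusted p = 0.041), and without αTC1 replicate 5 Neurod1 did (0.020).

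In the mixtures, the most changed called peak of each of the 5 factors with a call followed the composition. The measure was the correlation between normalized read count and the percentage of the line in which the peak was more open, over 9 mixtures, with two-sided exact permutation p-values adjusted over 5 peaks. The Rfx3 peak 167.1 kb upstream had Pearson's r of 0.94 and Spearman's rho of 0.95 (exact adjusted p = 3.79e-04 and 0.0012). The Rfx6 internal-start peak had r of 0.94 and rho of 0.93, and the Pou3f4 upstream peak 0.92 and 0.90. The Insm2 start-site peak had r of 0.92 and rho of 0.93, and the Insm1 peak 4.56 kb upstream 0.91 and 0.90. Adjusted exact p-values were at most 0.0014 for r and 0.0020 for rho. Without the 10% and 90% mixtures r ranged from 0.83 to 0.94 over the 5 peaks, each with an exact p of at most 0.030. All 5 peaks were read in the same 9 libraries, so these are not 5 independent tests. The peaks were chosen for their difference between the pure lines, and the mixtures blend those same lines. A correlation with composition was therefore largely set by the design and is no separate evidence for the differences.

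The Insm2 peak measured 8.53, 5.56, 7.79, 12.4 and 9.35 at 10%, 20%, 30%, 40% and 50% βTC6. It then measured 13.4, 18.0, 21.2 and 27.0 at 60%, 70%, 80% and 90% βTC6. Against a straight line between the pure means, 8 of its 9 mixtures lay below, with a largest gap of 9.12 at 50%. Insm1 likewise lay below its line in 8 of 9 mixtures and Rfx6 in 7. Pou3f4 lay below in 7 of 9, with a largest gap of 7.37 at 70% αTC1, while Rfx3 lay above its line in 7 of 9, with a largest gap of 7.85 at 90% αTC1. Each mixture is 1 library, so these distances have no replicate error and are given as a description.

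**Figure D3:**
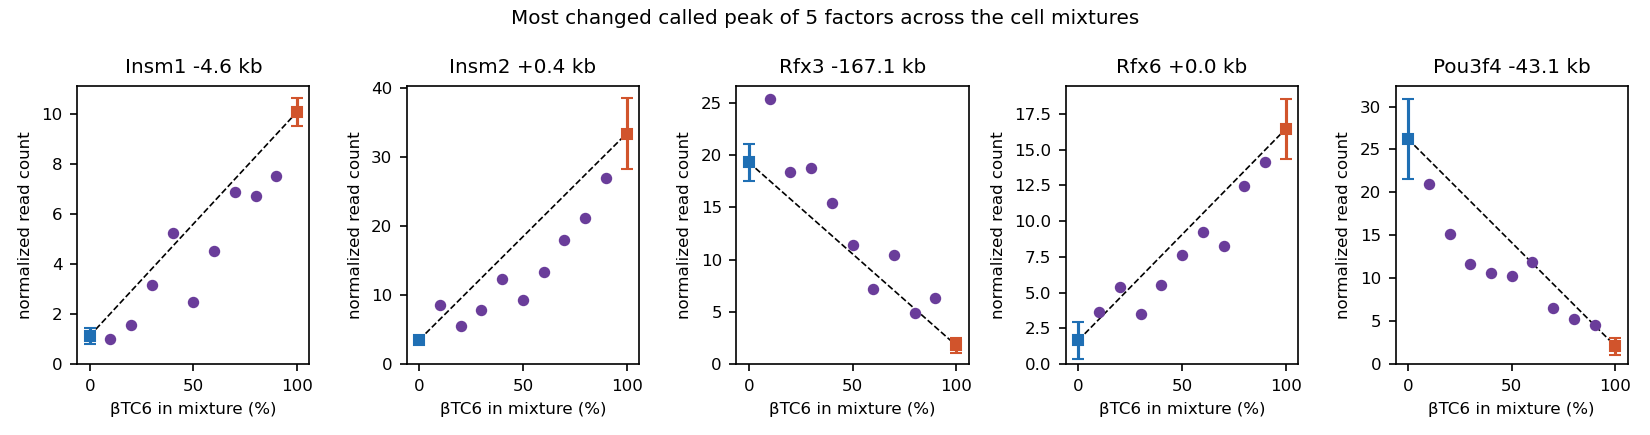
Normalized read count (vertical axis) of the most changed called peak of 5 factors against the percentage of βTC6 cells in the mixture (horizontal axis). Purple points are the 9 mixtures with 1 library each, squares the pure lines (mean ± SD, n = 5), and the dashed line joins the pure means; Insm2 points run below the line and most Rfx3 points above it.

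Genes around these factors were read from 9 lists, whose counts stand beside the share of all tested genes. Among Neurogenin and NeuroD relatives, 6 of 11 were tested, and 4 were called higher in αTC1 (against 4.08% of all tested genes) and 0 in βTC6 (10.2%). Neurod2 averaged 7.89 ± 1.54 FPKM in αTC1 (SD, n = 3) against 0.01 ± 0.02 in βTC6, Neurod6 1.56 ± 0.24 against 0.04 ± 0.04, and Atoh8 30.4 ± 7.18 against 3.10 ± 0.76. The fourth was the bHLH partner Tcf4 (88.8 ± 7.50 against 15.1 ± 0.93 FPKM), named after its values were seen. Neurod2 and Neurod6 passed the filter on low values only through αTC1, so the direction of these 2 calls was set by that filter. The 2 brain-associated NeuroD genes were thus detected in αTC1 beside a Neurod1 transcript that did not differ past the threshold. Of islet-wide transcription factors downstream of Neurog3, 11 of 13 were tested and 3 were called in each direction (against 10.2% of all tested genes in βTC6 and 4.08% in αTC1). Pax4, a paired-homeodomain factor of the beta-cell lineage, is listed at 0 in αTC1 and averaged 2.56 ± 0.14 FPKM in βTC6. Neurod2, which this list shares with the first, was among those called higher in αTC1. Pax4 passed the filter only through βTC6 and Neurod2 only through αTC1, which set their directions.

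All 22 pan-endocrine secretory genes were tested, and 5 were called, all higher in βTC6 (against 10.2% of all tested genes). The prohormone convertase Pcsk1 averaged 0.15 ± 0.10 FPKM in αTC1 and 84.8 ± 38.3 in βTC6, the granin Chgb 105.3 ± 7.92 and 840.4 ± 259.6, and Cplx2, a complexin of vesicle release, 9.56 ± 1.84 and 65.9 ± 7.12. The other called genes were Cpe and Scg3, and by the adjusted p alone 14 were higher in βTC6 and 5 in αTC1 (against 74.6% of all tested genes in either direction). Pcsk1 passed the filter on low values only through βTC6, which set its direction. The median log2 fold change of this list was 1.19, beside 0.01 for all tested genes. Among Notch genes, which hold Neurog3 down in progenitors, 6 of 12 were tested and 3 called (against 14.3% of all tested genes). The ligand Jag2 was higher in βTC6 (15.7 ± 1.30 against 0.20 ± 0.21 FPKM), and the receptor Notch2 (1.31 ± 0.11 against 0.20 ± 0.04) and the target Hey1 (14.3 ± 4.04 against 2.25 ± 0.19) were higher in αTC1. Jag2 passed the filter only through βTC6 and Notch2 only through αTC1, which set their directions. Of 20 tested ciliary genes of RFX factors, 1 was called higher in βTC6 (against 10.2% of all tested genes), Ift88, a transport protein of the cilium, at 1.89 ± 0.29 FPKM in αTC1 and 9.73 ± 0.98 in βTC6. By the adjusted p alone 11 ciliary genes were higher in βTC6 and 5 in αTC1, a share near the 74.6% of all tested genes.

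The remaining lists held no called gene, and their counts by the adjusted p alone stand beside 74.6% of all tested genes. Of the other RFX family members and their MHC class II enhanceosome partners, 9 were tested and 8 passed the adjusted p alone, 3 in βTC6 and 5 in αTC1. Of 10 genes bound by RFX5 complexes, 9 of MHC class II and the class I light chain B2m, only H2-DMa and B2m were tested and neither passed. Of MYT and POU relatives 3 of 6 were tested, none of them a POU class 3 gene, with 1 higher in βTC6 and 2 in αTC1 by the adjusted p alone. Of INSM1 and REST corepressors 9 of 11 were tested, with 3 and 2.

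Short motifs were searched on both strands of the central 200 bases of every peak, as a description. The E-box CAGATG of the NEUROG and NEUROD factors was found in 18 of the 63 factor peaks (28.6%, against 23.2% of all peaks), and the E-box CAGCTG in 12 (19.0%, against 17.2%). The X-box core GTTGCC was in 9 (14.3%, against 8.57%), the INSM1 letters CAGGGGG in 4 (6.35%, against 4.09%) and the MYT letters AAAGTTT in 1 (1.59%, against 2.21%). The octamer ATGCAAAT, the REST letters TTCAGCACC and the full X-box in 2 spacings were in 0 factor peaks, and in 1.27%, 0.257%, 0.0661% and 0.0369% of all peaks. Of the 12 called peaks, 1 held CAGATG, 1 CAGCTG, 2 the X-box core and 1 the INSM1 letters. Over whole peaks CAGATG was in 36 factor peaks (57.1%, against 47.9% of all peaks), CAGCTG in 22 (34.9%, against 38.4%) and GTTGCC in 16 (25.4%, against 23.2%). CAGGGGG was in 9 (14.3%, against 11.4%) and AAAGTTT in 7 (11.1%, against 8.85%). The octamer was in 5 (7.94%, against 3.96%), the REST letters in 1 (1.59%, against 0.953%) and the full X-box in 0. In RefSeq promoter windows (GRCm38.p6), 10 windows of 8 factors were found among 32851. Neurog3 held CAGCTG, Insm2 held CAGATG, Rfx6 and Rfx3 each held GTTGCC, and 1 of 3 Myt1 windows held AAAGTTT. Those letters occur in 16.3%, 17.2%, 12.5% and 4.74% of all promoter windows.

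The genes closest to each tested factor in the plane of its mean log2(FPKM + 1) in αTC1 and in βTC6 were found over the 2 lines. Nearest to Pou3f4 were Gm10020 (58.9 and 0.43 FPKM, distance 0.21) and Peg10 (46.1 and 0.54 FPKM, 0.22). Nearest to Insm1 were Dnajc3 (8.38 and 48.6 FPKM, 0.24) and Sord (5.68 and 55.5 FPKM, 0.29). The other factors had closer neighbours, at 0.01 to 0.05: 0610010O12Rik and Hnrnpul1 for Neurod1, Moap1 and Nmt1 for Myt1, and Tulp4 and Polr2a for St18. Kcnu1 and Lima1 lay nearest to Rfx3, Nr4a2 and Rrm2b to Rfx5, and Scrib and Gm1673 to Rfx6.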

How the data were processed

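Members and gene lists were chosen with earlier results of these data known. The deposited ATAC-seq table holds TMM-normalized read counts, a signal per consensus peak: after trimming (Trimmomatic) and BWA alignment to mm9, the authors dropped duplicates (Picard), found peaks in each library (MACS2), merged them (DiffBind), assigned each to its nearest gene (HOMER) and normalized the reads in peaks to effective library sizes. The same table holds the authors' own calls of differential and signature peaks, which were not used. The deposited expected counts and FPKM values come from the authors' runs of Trim Galore, Bowtie2 and RSEM. Per-sample columns left without a sample numbered 0.

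Peaks were tested with limma 3.58.1 (trend) on log2(normalized read count + 1) over the 10 pure libraries, and genes with edgeR 4.0.16 (quasi-likelihood, TMM) on expected counts rounded to whole numbers, in R 4.3.3. The pseudocount of 1 shrinks fold changes of peaks with few reads. Every value was a whole multiple of its library's lowest (within 0.01 of a whole number), so reads were recovered and tested with edgeR as an alternative, which called 15 of the 63 factor peaks in place of 12, and 13794 (βTC6) and 5739 (αTC1) of all 65053 peaks in place of 8409 and 3502. No value is 0, so the lowest, taken as 1 read, may also stand for none. The p-values were adjusted over all features. DESeq2 1.42.0 was run as an alternative. Scripts were tested on simulated data. Python 3.11.15, scipy 1.17.1 and matplotlib 3.10.9 did the rest. The processing groups (replicates 1 to 3, replicates 4 and 5) were read from mitochondrial read shares in the study's sequencing summary, which does not name them as batches. Positions of genes come from GENCODE on mm9, and windows from the mm9 genome. Intervals were not given for single libraries, and the floor of 3 counts covers counting error only. For naming, the rule took all 10 factors, start-site peaks, the 2 most changed called peaks of a factor or else its highest peak, and up to 3 called genes of a list, of which a single gene is not reported here.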

Additional observations from a re-analysis of the deposited data

Results flagged for a closer look

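Among 64 groups of 5 libraries examined (the named or called factor peaks and the locus sums in each line), 3 held a library far from its other 4, where chance alone flags about 1 in 20 groups. At the Rfx3 peak 6.01 kb from a start, αTC1 replicate 5 had a normalized read count of 6.93 while the other αTC1 libraries lay between 3.14 and 4.20. For the Rfx6 locus sum, αTC1 replicate 5 stood at 71.5 beside 79.6 to 80.6 in the others. At the Insm1 peak 4.56 kb upstream, βTC6 replicate 5 had 9.11 beside 10.3 to 10.4. The 2 libraries concerned, replicate 5 of each line, belong to the second processing group, and the part of that group in these values was not tested. Without the library in question the log2 fold changes stayed within 1.92 to 2.15 at the Rfx3 peak, 0.71 to 0.78 for the Rfx6 sum and 2.32 to 2.45 at the Insm1 peak, which are the ranges over all single libraries left out.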

How the results depend on the processing

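The 2 called transcripts, Pou3f4 and Insm1, were called under all alternatives run: DESeq2, other size factors, spike-in scaling or a spike-in factor, no filter, log2 FPKM, a replicate block and each library left out (2 to 2 calls). Factors past the adjusted p alone fell from 5 to 3 with spike-in library sizes (9102 to 3566 over all genes) and ranged from 4 to 6 with a library left out. List genes called rose from 18 to 30 with no filter, fell to 14 with limma on log2(FPKM + 1) and ranged from 18 to 19 with a library left out; over all genes, calls in βTC6 and αTC1 went from 1245 and 498 to 2510 and 1020, and to 702 and 277. Factor peaks called in βTC6 fell from 9 to 2 with a pseudocount of 5 (8409 to 1668 over all peaks) and to 5 after quantile normalization (5555), and ranged from 7 to 9 with a library left out. Those called in αTC1 went from 3 to 1 with a pseudocount of 5 (3502 to 819 over all peaks) and to 5 after quantile normalization and with edgeR on recovered reads (5032 and 5739 over all peaks), and stayed at 3 to 3 with a library left out. The pseudocount of 5 ended all 4 calls at Insm1, all 3 at Rfx3, the Insm2 call at 29.7 kb and the Rfx6 internal-start call. Quantile normalization gained a peak at Neurod1 (5.71 kb) and 1 at St18, and edgeR gained both and another at St18. Peaks past the adjusted p alone numbered 47 to 52 and locus sums 6 to 8 with a library left out. After quantile normalization the Rfx3 start-site peak turned direction (0.43), as did 5 other factor peaks, of which the Rfx6 first start-site peak (0.18) is named, and the Insm1 locus sum did so with distant peaks alone (−0.25). The cause was not tested. The replicate numbers do not pair the samples (correlations of same-numbered deviations from −0.04 to 0.02 for RNA-seq and 0.00 to 0.07 for ATAC-seq), and a replicate block gave 9 and 3 called factor peaks and 2 called transcripts, with no factor's call changed. For locus sums, replicates 1 to 3 alone could not pass the threshold and gave directions only. Depth limits Neurog3, Insm2 and peaks with few reads in a line.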
